A study of Mus musculus with 12 samples.

Results

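Gene expression in the gastrocnemius, a muscle of the calf, was compared between lights off and lights on in mice that carry a liver-specific E4BP4 transgene (TG). The comparison rests on 6 of the 12 libraries of the series, chosen by their labels: 3 TG libraries from Zeitgeber time (ZT) 12, when the lights went off, and 3 from ZT0, when they went on. All mice were 8-week-old C57BL/6 animals on a chow diet under 12 h of light and 12 h of dark, and the other 6 libraries came from wild-type (WT) mice at the same times. Poly(A) RNA was sequenced from an unstranded library kit, and each gene's level was deposited as TPM, a transcript abundance scaled for transcript length and library size. The labels give the transgene's tissue but not the promoter that drives it, and they do not say whether the replicates are separate mice, so p-values measure the spread between these libraries, which may be technical. They give no sex, batch or day of collection.

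E4BP4, encoded by Nfil3, is a transcriptional repressor of the bZIP family that binds D-box elements. It belongs to the output arm of the circadian clock, in which the activators BMAL1 (Arntl) and CLOCK drive E-box genes, the period and cryptochrome proteins inhibit these activators, and REV-ERB and ROR receptors lower or raise Arntl itself. Muscle has its own clock and also follows feeding, activity and hormones such as glucocorticoids, all of which differ between the start of the light and the start of the dark phase. Muscle Nfil3 does not check the transgene, which is confined to the liver by its label. It stood at 20.3, 13.6 and 14.2 TPM in TG ZT0 replicates 1, 2 and 3 and at 7.96, 20.9 and 11.6 TPM in TG ZT12. The ranges overlapped, and the difference of -0.31 ± 0.30 (log2(TPM + 1), standard error) did not pass the test (limma, Benjamini-Hochberg adjusted p = 1).

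The TG libraries held 10388206 to 11451761 reads in the listed genes at ZT0 and 13126200 to 15780580 at ZT12. These depths did not overlap, so depth and time cannot be told apart. Summed muscle fibre markers (9 of 9 listed) were 83441 to 88335 TPM at ZT0 and 84350 to 87462 TPM at ZT12, in keeping with the labelled tissue. None of the 8 hepatocyte, 5 neutrophil or 7 lymphocyte markers was among the listed genes. Since a gene's place in the list hangs on its level in a WT library, their absence cannot show what the TG libraries hold. Summed red cell markers (5 of 6 listed) were 110 to 156 TPM at ZT0, against 2959, 4565 and 145 TPM in ZT12 replicates 1, 2 and 3. The WT libraries had the same split, with 86.2 to 163 TPM at ZT0 and 1526, 4257 and 176 TPM in ZT12 replicates 1, 2 and 3. Summed Schwann cell markers (6 of 8 listed) were 89.6 to 151 TPM at ZT0 and 28.3, 57.3 and 129 TPM at ZT12. In TG, replicate 3 of ZT12 was thus within the ZT0 range in both, and the other 2 were outside it. TG ZT12 replicate 1 also had the lowest median level of the listed genes, 4.96 TPM against 5.63 to 7.25 TPM in the other TG libraries. In the WT libraries, which share the fit, replicate 2 of ZT0 had the highest, 9.26 TPM. The part of these differences in the results below was not tested beyond the alternatives given beside them. In whole muscle, fewer cells of a type and less RNA per cell cannot be told apart.

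**Figure D1:**
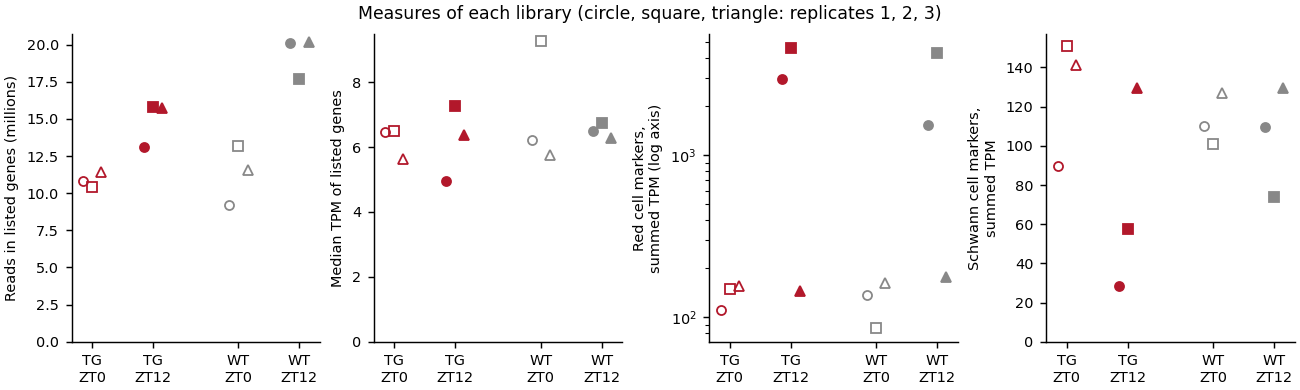
Reads in listed genes, median TPM, summed red cell marker TPM (log axis) and summed Schwann cell marker TPM of each of the 12 libraries (red, TG; grey, WT; open, ZT0; filled, ZT12). The TG ZT12 libraries are all deeper than the TG ZT0 libraries, and in red cell markers ZT12 replicates 1 and 2 are high in both genotypes (2959 and 4565 TPM in TG, 1526 and 4257 TPM in WT).

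Between ZT0 and ZT12, 16 of 10415 tested genes changed in TG muscle. Of these, 4 rose (Nr1d1, Pdk4, Col5a3 and Fbxo32) and 12 fell (Angptl7, Arrdc3, Arrdc2, Glul, Cys1, Fmo2, Inmt, Mid1ip1, Per2, Cebpb, Nmb and Adh1). The calls come from limma on log2(TPM + 1), with all 12 libraries in 1 fit and a Benjamini-Hochberg adjusted p under 0.05. They are 0.154% of the genes tested, 0.0384% for rises and 0.115% for falls. All 16 had ZT12 libraries that lay entirely above or below the ZT0 libraries, as did 737 genes in all (7.08%; 3.21% above and 3.87% below). At an unadjusted p under 0.05 limma found 368 genes (3.53%), 129 higher and 239 lower, where a uniform p would give 521. The median difference over all tested genes was -0.01, and a gene of median error had an unadjusted 95% interval of 0.42 on each side of its estimate. A call after adjustment took more than that, and the smallest difference among the called genes was -1.08 (Adh1). A gene that was not called is therefore not shown to be unchanged. All differences below are ZT12 minus ZT0 on the log2(TPM + 1) scale, which understates changes of low genes. Only genes with at least 1 TPM in WT ZT0 replicate 1 are listed, so genes silent at ZT0 and active at ZT12 could not appear among the rises.

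**Figure D2:**
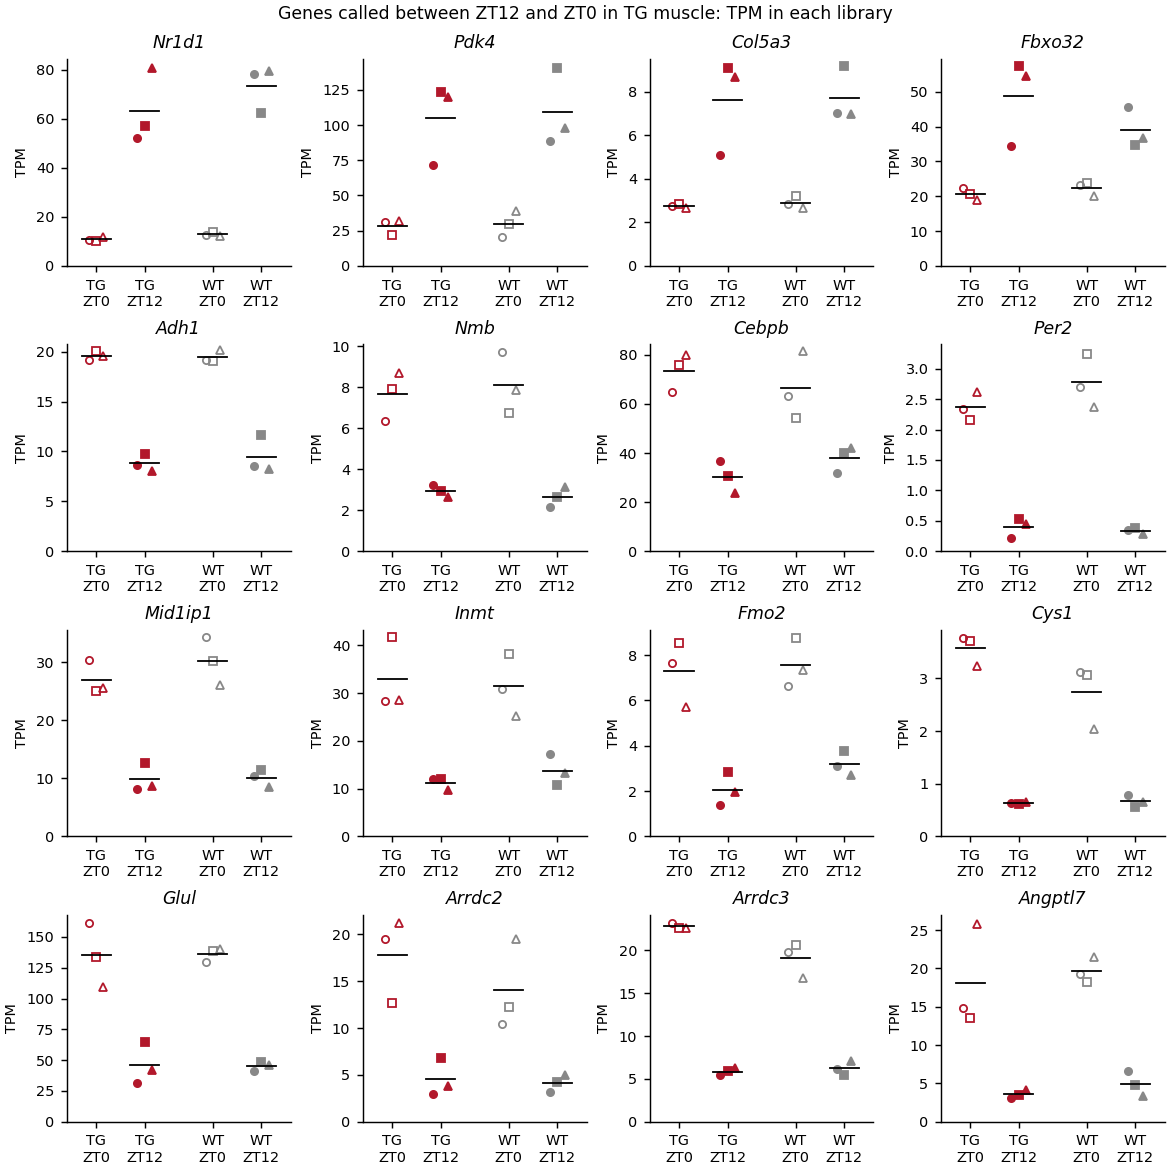
TPM of the 16 called genes in each library (red, TG; grey, WT; open, ZT0; filled, ZT12; circle, square and triangle, replicates 1, 2 and 3; bars, means of 3 libraries). In each panel the 3 TG ZT12 points lie all above or all below the 3 TG ZT0 points, as for Nr1d1 at 52.1 to 80.8 against 10.3 to 11.6 TPM.

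The clearest change was in the clock itself. Nr1d1 (chr11:98767932-98775377, mm10), which encodes the repressor REV-ERB alpha, stood at 10.4, 10.3 and 11.6 TPM in TG ZT0 replicates 1, 2 and 3 and at 52.1, 57.2 and 80.8 TPM at ZT12. Every ZT12 library stood above every ZT0 library. The mean TPM rose 5.87-fold, a difference of 2.42 ± 0.16 (limma adjusted p = 3.34e-05). It was called in all 27 alternative settings, with adjusted p from 1.37e-05 to 0.0343. The end of Nr1d1 overlaps Thra, the thyroid hormone receptor alpha gene on the opposite strand, by 1075 bases, and reads there cannot be told apart with an unstranded kit. Thra stood at 28.6, 30.2 and 26.9 TPM at ZT0, against 41.3, 40.6 and 50.8 TPM at ZT12, 0.61 ± 0.12 higher but not called (adjusted p = 0.116).

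Per2 (chr1:91415982-91459328), a period repressor of the clock, moved the other way. It stood at 2.35, 2.16 and 2.62 TPM at ZT0, against 0.217, 0.529 and 0.443 TPM at ZT12. The mean TPM was 5.99-fold lower at ZT12, and the difference was -1.28 ± 0.15 (limma adjusted p = 0.00505). Its fewest reads in any library were 153 at ZT0 and 23 at ZT12. The call was lost with summed haemoglobin as a covariate (limma adjusted p = 0.074) and in a fit of the 6 TG libraries alone (limma adjusted p = 0.0544). Of the 16 clock genes described here, only Nr1d1 and Per2 passed the test.

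For the sequence context of the clock genes, the 250 bases upstream of 3 of their start sites are shown 5′ to 3′ (RefSeq, GRCm38.p6), with the E-box CACGTG or the D-box TTATGTAA or TTACGTAA in capitals: Nr1d1, the largest rise (chr11:98775378-98775627, minus strand), Per3, which holds 2 D-boxes, the element E4BP4 is known to bind (chr4:151044666-151044915, minus strand), and Cry1, which holds 1 E-box (chr10:85185055-85185304, minus strand).
Nr1d1: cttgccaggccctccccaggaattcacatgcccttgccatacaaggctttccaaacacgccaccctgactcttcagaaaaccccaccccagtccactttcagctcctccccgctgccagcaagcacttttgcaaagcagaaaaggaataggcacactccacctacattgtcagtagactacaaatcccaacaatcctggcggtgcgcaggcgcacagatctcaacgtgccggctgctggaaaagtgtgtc
Per3: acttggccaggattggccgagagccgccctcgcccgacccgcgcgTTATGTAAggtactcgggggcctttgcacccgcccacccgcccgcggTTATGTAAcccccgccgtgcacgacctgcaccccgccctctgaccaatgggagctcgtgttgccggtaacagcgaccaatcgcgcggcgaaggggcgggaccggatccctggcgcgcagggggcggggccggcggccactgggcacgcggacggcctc
Cry1: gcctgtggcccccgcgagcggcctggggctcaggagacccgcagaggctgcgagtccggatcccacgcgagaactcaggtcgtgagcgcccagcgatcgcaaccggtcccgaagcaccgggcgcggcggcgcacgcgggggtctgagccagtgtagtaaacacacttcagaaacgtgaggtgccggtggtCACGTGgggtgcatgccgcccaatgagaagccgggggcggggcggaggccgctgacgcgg
The Per3 D-boxes begin 205 and 158 bases upstream and the Cry1 E-box 60 bases upstream, and the Nr1d1 window has neither element. Among 7544 tested genes with such a window, 662 (8.78%) held an E-box and 40 (0.53%) a D-box on either strand. Of the 14 called genes with a window, none held either element. Per2 and Fbxo32 had no such window and were not searched. The half-site AGGTCA, the core of the element of REV-ERB and ROR receptors, was in 765 windows (10.1%) and in 1 of the 14, Glul. It was searched without the bases that flank it in the full element. A match is only a run of letters, and no match says only that these letters are not in this window.

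The other clock genes did not pass the test, and their values follow by role. The activators Arntl and Clock were listed together with the E-box repressors Bhlhe40 and Bhlhe41. All 4 were higher at ZT12 by estimate, with a median of 0.46 over both roles. Arntl, which encodes BMAL1, stood at 5.43, 4.42 and 3.83 TPM at ZT0, against 4.97, 11.8 and 7.88 TPM at ZT12, where replicate 1 lay within the ZT0 range (0.67 ± 0.24, limma adjusted p = 0.945). Clock, its partner, had the same arrangement, at 3.15, 2.68 and 1.94 TPM against 2.31, 6.14 and 4.53 TPM (0.51 ± 0.26). Bhlhe41, a repressor of E-box genes, lay above in all 3 ZT12 libraries (0.41 ± 0.17), and Bhlhe40, its close relative, overlapped (0.11 ± 0.15). Limma called Arntl in 1 of 27 alternatives, the fit without TG ZT12 replicate 1 and WT ZT0 replicate 2 (0.95, adjusted p = 0.034). These are the libraries of the lowest and highest median TPM. The first is also the ZT12 library that lay within the ZT0 range of Arntl, and the median of all tested genes was higher in that fit. Npas2, a paralog of Clock, is not analysed here.

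The period and cryptochrome repressors were lower at ZT12 by estimate in 5 of 5 tested genes, with a median of -0.62, and 4 of the 5 had ZT12 libraries entirely below ZT0 (3.87% of all genes did). Only Per2 was called. Per3 stood at 3.39, 3.58 and 2.62 TPM at ZT0, against 1.43, 1.48 and 1.33 TPM at ZT12, a difference of -0.79 ± 0.18 (limma adjusted p = 0.207). Per1, a period gene that glucocorticoids also induce, was at 5.12, 3.32 and 4.71 TPM and at 2.19, 2.63 and 2.61 TPM (-0.62 ± 0.19, adjusted p = 0.721). The 3 ZT12 libraries of both genes lay below the 3 ZT0 libraries. Cry2 was also below (-0.62 ± 0.19), and Cry1 overlapped (-0.41 ± 0.21). The sign of this group's median was the same under each of the 4 other scalings.

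Of the other nuclear receptors of the clock, those described here were not called. Nr1d2, which encodes REV-ERB beta, stood at 23.5, 22.7 and 19.8 TPM at ZT0, against 19.4, 21.8 and 22 TPM at ZT12 (-0.06, 95% interval -0.31 to 0.19). Rora, which encodes an activator of Arntl, differed by -0.10 ± 0.18, with overlapping libraries. The PAR bZIP factors Dbp, Tef and Hlf activate D-box genes, which Nfil3 opposes. Dbp stood at 45.9, 51.2 and 54.2 TPM at ZT0, against 48, 23.6 and 41.4 TPM at ZT12 (-0.47 ± 0.22), overlapping in replicate 1. Hlf lay below in all 3 ZT12 libraries, at 2 to 2.98 TPM against 4.13 to 4.81 TPM (-0.68 ± 0.18, limma adjusted p = 0.436), and Tef differed by -0.27 ± 0.13. All 4 members of this group, Nfil3 included, were lower by estimate, with none called.

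**Figure D3:**
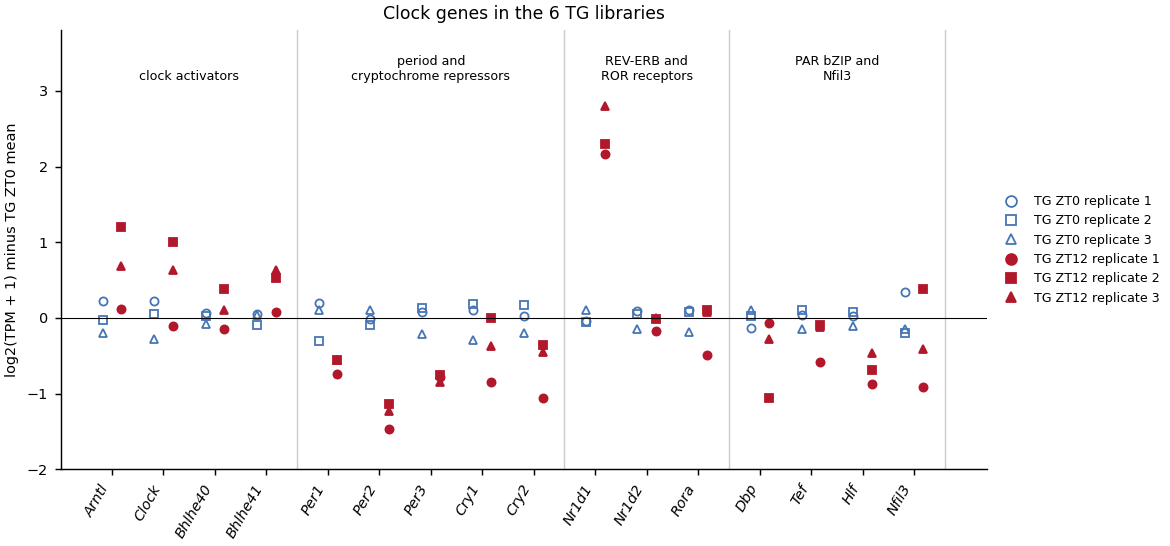
log2(TPM + 1) of 16 clock genes in the 6 TG libraries, each minus the mean of the 3 TG ZT0 libraries (blue open, ZT0; red filled, ZT12; circle, square and triangle, replicates 1, 2 and 3), grouped by role. Nr1d1 at 2.42 and Per2 at -1.28 are the 2 called genes, and Arntl and Clock of ZT12 replicate 1 lie within the ZT0 points.

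Of the genes of fuel use, Pdk4, the kinase that restrains pyruvate dehydrogenase and so the oxidation of glucose (chr6:5483351-5496278), stood at 31, 21.8 and 31.6 TPM at ZT0, against 71.8, 123 and 120 TPM at ZT12. Its mean rose 3.73-fold, a difference of 1.84 ± 0.27 (limma adjusted p = 0.0162). The other 8 tested genes of pyruvate dehydrogenase control, the enzyme's subunits and its other kinases and phosphatase, were not called and ran from -0.30 for Pdk2 to 0.07 for Pdk1. The call for Pdk4 was lost in 5 of the 6 fits that left out 1 TG library (TG ZT0 replicate 1, 2 or 3, or TG ZT12 replicate 2 or 3, adjusted p up to 0.116). Leaving out a WT library alters only the fit's estimate of spread, and those fits kept the call.

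Pfkfb3, which makes the activator of glycolysis fructose 2,6-bisphosphate, had an estimate as large as that of Pdk4 but was not called. It stood at 8.28, 13.8 and 15 TPM at ZT0, against 38, 46.8 and 53.4 TPM at ZT12 (1.84 ± 0.41, limma adjusted p = 0.182). The 20 glycolysis genes had a median of -0.05 and the 22 fatty acid uptake and oxidation genes 0.07, with 0 called in each. Ucp3, a mitochondrial carrier that rises when muscle burns fat, was the largest of the oxidation genes by estimate. It stood at 23.4 to 26.1 TPM at ZT0, against 23.4, 50.7 and 51 TPM at ZT12, so that ZT12 replicate 1 overlapped (0.66 ± 0.29).

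Lipid synthesis had 1 called gene of 17. Mid1ip1 (chrX:10717365-10719702), which promotes the polymerisation of acetyl-CoA carboxylase, fell from 30.3, 25.1 and 25.5 TPM at ZT0 to 8.21, 12.7 and 8.73 TPM at ZT12. The groups did not overlap and the difference was -1.38 ± 0.17 (limma adjusted p = 0.00579), a call lost when the 6 TG libraries were fitted alone (adjusted p = 0.0599). Its paralog Thrsp was lower in every ZT12 library without being called, at 22.1, 67.2 and 29 TPM and at 13.5, 13.1 and 21.6 TPM (-1.12 ± 0.33, adjusted p = 0.577). The list median was -0.19, and it became 0.06 without TG ZT12 replicate 1 and WT ZT0 replicate 2. Scd1, a desaturase that adipocytes hold in quantity, stood at 21.3, 96.5 and 14.9 TPM at ZT0, against 5.75, 20.2 and 76.3 TPM at ZT12, and moved with the adipocyte hormone gene Lep, at 0.715, 5.92 and 0.482 TPM and at 0.118, 0.418 and 2.95 TPM. Thrsp was also highest in TG ZT0 replicate 2, and Mid1ip1 was highest in TG ZT0 replicate 1. Summed adipocyte markers (8 of 8 listed) were 2031 to 2751 TPM at ZT0 and 1694 to 1997 TPM at ZT12, and their part was not tested. Most of this sum was 1 gene, Car3, at 1854, 2185 and 1759 TPM at ZT0, against 1511, 1461 and 1293 TPM at ZT12. The sum therefore says little about the other markers or about fat cells. G0s2, an inhibitor of the lipase ATGL, was the nearest miss of the lipolysis list, at 58.5, 50.2 and 35.8 TPM at ZT0, against 13.9, 17.8 and 12.4 TPM at ZT12 (-1.63 ± 0.29, limma adjusted p = 0.0688).

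Genes known to answer glucocorticoids were lower at ZT12 by estimate in 17 of 20 (median -0.39), against 5551 of all 10415 genes. Limma called 3 of them lower (0.115% of all genes were): Arrdc3, Arrdc2 and Glul. The list was chosen with earlier results of these data known, so its counts are a description only. In WT 8 of the 20 were higher by estimate, with a median of -0.62. The alpha-arrestins Arrdc3 and Arrdc2 link ubiquitin ligases to membrane proteins. Arrdc3 (chr13:80883422-80896043) stood at 23.2, 22.6 and 22.6 TPM at ZT0, against 5.4, 5.91 and 6.24 TPM at ZT12, with a wide gap between the groups. The difference was -1.80 ± 0.13 (limma adjusted p = 4.2e-05), called in 26 of 27 alternatives. Arrdc2 (chr8:70835138-70839720) was more spread, at 19.5, 12.7 and 21.2 TPM and at 3.01, 6.83 and 3.85 TPM (-1.78 ± 0.29, adjusted p = 0.033). Its call was lost in 7 of 12 fits that left out 1 library (any TG library but ZT12 replicate 2, and WT ZT12 replicate 2 or 3, adjusted p up to 0.211). The other 3 alpha-arrestins were not called: Txnip stood at 149, 154 and 132 TPM and at 151, 241 and 184 TPM (0.38 ± 0.15). Txnip lies within Gm15441 on the opposite strand (3901 bases shared), so some of its reads cannot be told apart from those of Gm15441.

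Glul (chr1:153899929-153909723), the enzyme that makes glutamine from glutamate, fell from 161, 134 and 110 TPM at ZT0 to 31.5, 65 and 42.1 TPM at ZT12. No library of the groups overlapped, and the difference was -1.57 ± 0.21 (limma adjusted p = 0.0116). The call was lost without TG ZT0 replicate 1 or 2 or TG ZT12 replicate 3 (adjusted p up to 0.0818). Tsc22d3, a mediator of glucocorticoid anti-inflammatory action, was below in all 3 ZT12 libraries, at 75.3 to 120 TPM against 152 to 178 TPM (-0.85 ± 0.16, adjusted p = 0.0988). Fkbp5, a glucocorticoid receptor cochaperone, stood at 27.1, 24.3 and 18.1 TPM and at 9.51, 19.9 and 12.2 TPM, with overlap in replicate 2 of ZT12 (-0.74 ± 0.23, adjusted p = 0.696). Other members stayed near 0, such as Klf9 (0.05 ± 0.12) and Mt1 (-0.08 ± 0.18). The list's median kept its sign under each of the 4 other scalings.

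Cebpb (chr2:167688915-167690432), a bZIP transcription factor of metabolic and inflammatory genes, fell from 65, 75.7 and 80.2 TPM to 36.9, 30.5 and 23.6 TPM (-1.27 ± 0.18, limma adjusted p = 0.0154). Its 3 ZT12 libraries lay under all of ZT0. The call was lost under median-of-ratios and upper-quartile scaling, with limma-voom and without TG ZT0 replicate 2 or 3 or TG ZT12 replicate 2 or 3 (adjusted p up to 0.103 for single libraries left out). The related Cebpd overlapped between the times (-0.19 ± 0.25).

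Fbxo32 (chr15:58175879-58214892), which encodes atrogin-1, a ubiquitin ligase that rises in muscle wasting, rose from 22.4, 20.5 and 19.1 TPM to 34.5, 57.5 and 54.5 TPM. The difference was 1.17 ± 0.18 (limma adjusted p = 0.0212). The call was lost without any TG ZT0 library or TG ZT12 replicate 2 or 3 (adjusted p up to 0.153). It was the only called gene of the 13 atrophy and FoxO genes. Trim63, the ligase MuRF1 that is often raised with it, stood at 129, 112 and 113 TPM and at 126, 147 and 107 TPM (0.09 ± 0.13), and the forkhead factor Foxo1 was lower by estimate (-0.49 ± 0.31).

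Col5a3 (chr9:20770057-20815067), a chain of type V collagen, rose from 2.73, 2.83 and 2.64 TPM to 5.11, 9.09 and 8.66 TPM (1.17 ± 0.19, limma adjusted p = 0.036). It was the least stable of the 4 rises, lost in 10 of 12 fits that left out 1 library (all but those without WT ZT0 replicate 2 or TG ZT12 replicate 1, adjusted p up to 0.211). It was not on the matrix list, whose 21 genes were higher by estimate in 15, with a median of 0.18 and none called. The highest of these was Fbn1, which encodes fibrillin-1, at 2.94, 3.42 and 2.31 TPM and at 4.34, 11.6 and 7.49 TPM (1.10 ± 0.25, adjusted p = 0.208). Without TG ZT12 replicate 2 the matrix median was -0.05.

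The fallen genes included 3 enzymes of small-molecule oxidation or methylation. Adh1 (chr3:138277645-138290691), an alcohol dehydrogenase, stood at 19.1, 20.1 and 19.6 TPM at ZT0, against 8.6, 9.69 and 8.08 TPM at ZT12 (-1.08 ± 0.13, limma adjusted p = 0.00579). Fmo2 (chr1:162875047-162898712), a flavin monooxygenase, stood at 7.64, 8.55 and 5.7 TPM and at 1.37, 2.84 and 1.95 TPM (-1.46 ± 0.20, adjusted p = 0.0133). Inmt (chr6:55170627-55174990), which methylates indolamines, fell from 28.4, 41.7 and 28.6 TPM to 12, 12 and 9.8 TPM (-1.45 ± 0.20, adjusted p = 0.0133). None of the 3 had overlapping groups. Leaving out TG ZT0 replicate 2 ended all 3 calls, TG ZT12 replicate 3 those of Fmo2 and Inmt, and TG ZT0 replicate 1 that of Fmo2 (adjusted p up to 0.0994). Summed fibro-adipogenic markers were 360 to 434 TPM at ZT0 and 314 to 421 TPM at ZT12.

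Another 3 genes fell that belong to none of the lists. Angptl7 (chr4:148495280-148500462), a secreted angiopoietin-like protein, stood at 14.8, 13.5 and 25.9 TPM at ZT0, against 3.1, 3.51 and 4.14 TPM at ZT12. Its mean was 5.04-fold lower, a difference of -2.01 ± 0.24 (limma adjusted p = 0.00579), the largest fall of the called genes on this scale. It lies within Mtor on the opposite strand, so some of its reads cannot be told apart from those of Mtor. Cys1 (chr12:24665838-24681795), which encodes the cilium-associated cystin-1, stood at 3.77, 3.71 and 3.24 TPM and at 0.63, 0.613 and 0.659 TPM (-1.48 ± 0.15, adjusted p = 0.00194), with at least 83 reads a library at ZT0 and 19 at ZT12. Nmb (chr7:80902227-80905062), which encodes the peptide neuromedin B, fell from 6.35, 7.93 and 8.7 TPM to 3.22, 2.95 and 2.65 TPM (-1.13 ± 0.17, adjusted p = 0.0209). The Nmb call was lost under 3 of the 4 scalings (all but the removal of the 10 highest genes), with limma-voom and without TG ZT0 replicate 2 or 3 or TG ZT12 replicate 2 or 3 (adjusted p up to 0.153).

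The remaining lists had no called member. Among them were 25 respiratory chain genes (median -0.04), 11 mitochondrial regulators (0.05), 10 slow and 14 fast fibre genes (0.22 and -0.01), 15 autophagy and lysosome genes (0.00), 16 insulin and IGF1 signalling genes (-0.01), 11 glycogen genes (-0.05) and 15 heat shock and cold-inducible genes (0.07). Of the 9 tested myogenic factors, Myod1, which specifies the muscle lineage and is a known clock output, had the largest estimate. It stood at 27.1, 28.1 and 27.6 TPM at ZT0, against 6.6, 19.8 and 12.1 TPM at ZT12, below in every library but widely spread (-1.17 ± 0.30, limma adjusted p = 0.339). The 14 immediate early genes had a median of -0.04, and 3 of them lay above in all ZT12 libraries (3.21% of all genes did). The largest was Fos, a subunit of AP-1, at 1.23, 0.745 and 1.7 TPM at ZT0, against 11.8, 7.75 and 2.78 TPM at ZT12 (1.78 ± 0.39, adjusted p = 0.172), with the higher values in the 2 libraries of high red cell markers. In WT ZT12 replicates 1, 2 and 3 Fos stood at 4.5, 8.4 and 4.1 TPM, and a link to red cell markers was not tested. Among genes on no list, Cited4 (1.02, adjusted p = 0.0692) and Dusp10 (0.89, adjusted p = 0.092) were the nearest misses above 0.

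**Figure D4:**
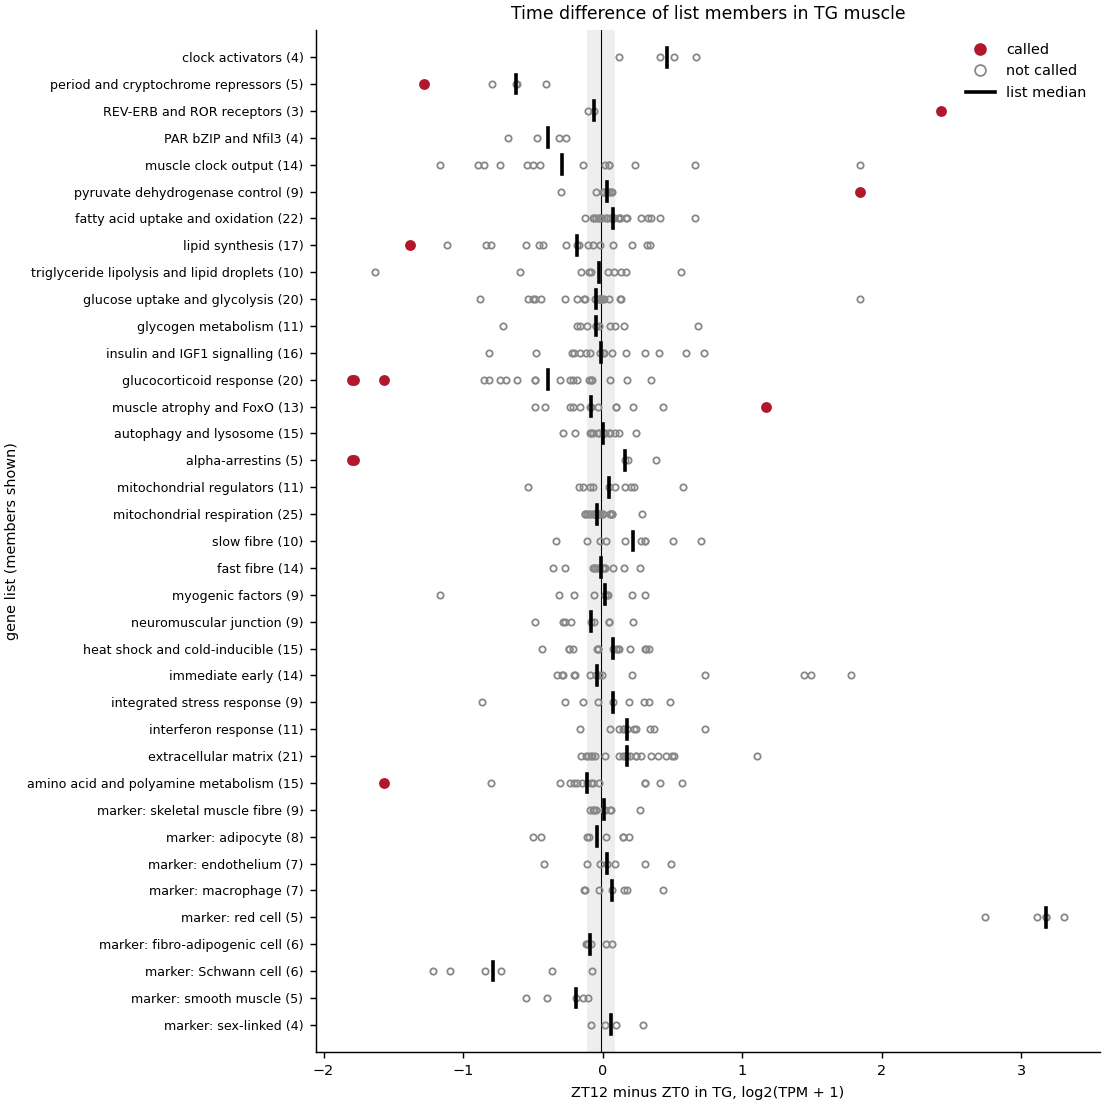
ZT12 minus ZT0 in TG muscle on the log2(TPM + 1) scale for the tested members of each gene list (red, called; grey open, not called; black bar, list median; grey band, middle 50% of all tested genes). The period and cryptochrome list has a median of -0.62 and glucocorticoid response -0.39, while most lists centre near the all-gene median of -0.01.

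The same time difference in WT muscle was set beside these values. Limma called 12 genes there (0.115%), and 10 were called in both genotypes, 62.5% of the TG calls and 83.3% of the WT calls. The 2 genotypes share no library, though they share the fit's estimate of spread. All 16 TG genes had the same sign in WT, with WT libraries that did not overlap either, as was so for 10.8% of all genes in WT. For Nr1d1 the WT difference was 2.42 and for Pdk4 1.86, against 2.42 and 1.84 in TG. The genes called in TG and not in WT were Fbxo32 (1.17 in TG, 0.76 in WT), Col5a3 (1.17 and 1.16), Arrdc2 (-1.78 and -1.53), Fmo2 (-1.46 and -1.03), Inmt (-1.45 and -1.14) and Cebpb (-1.27 and -0.78). Those called in WT and not in TG were Mylk4, a myosin light chain kinase (-1.07 in TG, limma adjusted p = 0.151), and Odf3l2 (-1.31, adjusted p = 0.0692).

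Whether these differences differ was tested by the interaction of time and genotype. For the 16 TG genes it ran from -0.49 (Cebpb) to 0.41 (Fbxo32), with 0 genes at an unadjusted p under 0.05 by limma. Over all genes limma called 0 (0%), its smallest adjusted p being 0.9999. By limma 69 genes (0.663%) were under an unadjusted p of 0.05, and limma-voom, which also called 0, had 112. For a gene of median error the interaction had an unadjusted 95% interval of 0.59 on each side, and a call after adjustment would take a larger difference. The lack of calls thus does not show that the genotypes are alike, and no call is shown to be particular to TG. Of the clock genes, Bhlhe40 had the smallest p (interaction -0.65 ± 0.21, unadjusted p = 0.0097, not called), with 0.11 in TG and 0.76 in WT. Across 10415 genes the TG and WT differences had the same sign in 64.5%, a description over genes that are not independent.

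**Figure D5:**
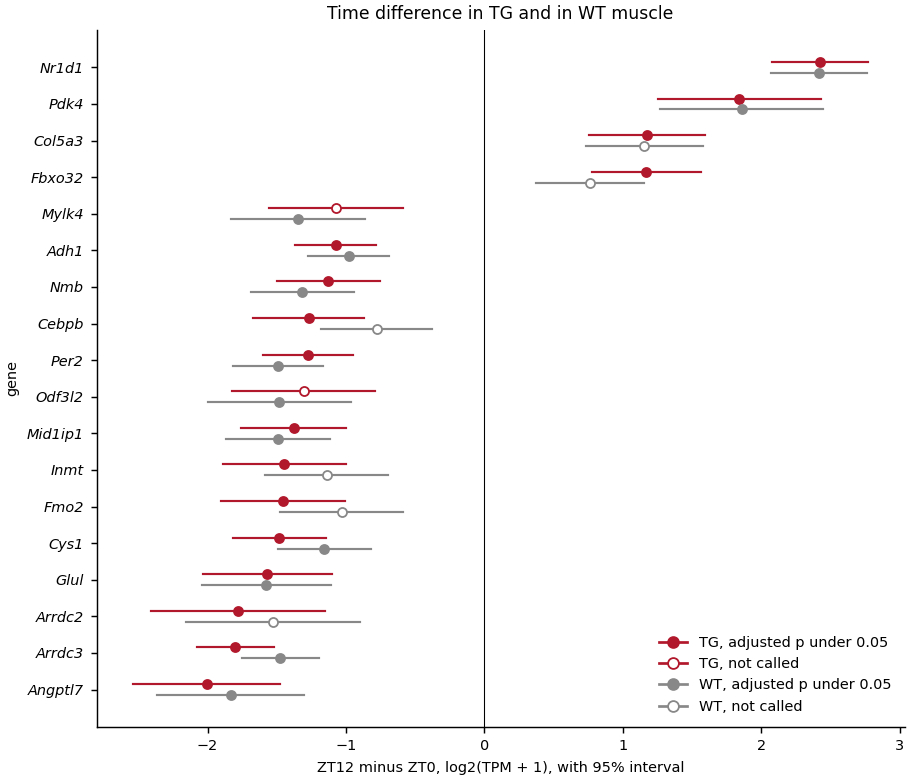
ZT12 minus ZT0 with 95% intervals for the 18 genes called in TG (red) or WT (grey) muscle on the log2(TPM + 1) scale (filled, called; open, not called). The intervals of the 2 genotypes overlap for all 18 genes, from Nr1d1 at 2.42 in both to Angptl7 at -2.01 and -1.83.

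Without TG ZT12 replicate 1 and WT ZT0 replicate 2, limma called 71 genes, 49 higher and 22 lower, and these held all 16 of the calls above. The median of all tested genes was then 0.10, so the rises include this shift. List members called higher then included Fbn1 and Col4a2 of the matrix, Irs2 and Pik3ca of insulin signalling and Junb, and those called lower included Ddit3 of the stress response and Tcap and Tspan4 of the muscle clock output. With log2 haemoglobin as a covariate 4 calls were left: Nr1d1, Arrdc3, Mid1ip1 and Adh1. The estimates of the other 12 genes moved by at most 0.17, as for Pdk4 (1.82 with the covariate, 1.84 without) and Glul (-1.64 and -1.57), so that they lost the call with differences of about the same size. Those of the 4 kept genes were 2.72 and 2.42 for Nr1d1, -1.65 and -1.80 for Arrdc3, -1.57 and -1.38 for Mid1ip1 and -1.26 and -1.08 for Adh1. Haemoglobin was high only in ZT12 replicates 1 and 2 of each genotype, so the covariate cannot be fully told apart from time.

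The genes whose levels over the 12 libraries were most like those of 3 clock genes are given as a description. For Nr1d1 they were its overlapping neighbour Thra (Pearson r = 0.960 over 12 libraries), Col5a3 (0.952) and Asph (0.947). For Arntl they were Bace1 (0.987), Klhl30 (0.974) and Rabgef1 (0.969), and all 3 had TG ZT12 replicate 1 within the TG ZT0 range, as Arntl did. For Per2 they were Mid1ip1 (0.978), Arrdc3 (0.970) and Tle4 (0.963). The 12 libraries share time, genotype and depth.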

How the data were processed

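Poly(A) RNA of 12 gastrocnemius libraries was deposited as a table of TPM for 10475 genes, made by the authors. HOMER 4.11.1, STAR, DESeq2, bcl2fastq and the build mm10 are named in the submitters' processing notes. No listed gene is under 1 TPM in replicate 1 of WT ZT0, and the listed genes hold 42.9 to 45.0% of each library's TPM. Coordinates and transcript lengths came from the 2 HOMER tables of single times, per the file headers; their 12 per-library columns were not used, since each table was normalized for 1 time.

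The test, over 10415 genes that reached 1 TPM in 3 libraries or more, was limma-trend (limma 3.58.1, R 4.3.3) of log2(TPM + 1), with 4 group means in 1 fit of the 12 libraries and no replicate block, and Benjamini-Hochberg adjustment over all tested genes (threshold 0.05). TPM times length gave whole reads (within 0.1 read, for values under 500 reads) for 99.76 to 99.98% of values, 9213610 to 20156723 a library, which limma-voom used as an alternative (28 genes called). Other alternatives were 4 scalings, filters, pseudocounts, subsets of libraries, a replicate block and a haemoglobin covariate.

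The members and gene lists were chosen with earlier results of these data known. The rule for named genes took in the called genes whose groups did not overlap, up to 10 of smallest p a direction and clock list members. It also took in 2 uncalled genes of smallest p per list, genes called in WT, the 5 of smallest interaction p, and the 3 most like Nr1d1, Arntl and Per2. Not all genes under this rule are described above. The 5 of smallest interaction p (Mir6988, Mir7672, Atp6v1g2, Dcn and Serpinf1) are among those left out. Others named (Klf9, Mt1, Cebpd, Trim63, Foxo1, Scd1, Pdk1, Irs2, Junb, Col4a2, Tcap and those of the closing section) were chosen after their values were seen. Fits were tested on simulated data with an independent error for each value. Differences shared across a library, such as those in red cell markers, were not simulated, so the test does not cover them. Results of 1 clock gene are not reported here. Tables and figures were made with matplotlib 3.10.9, pandas 2.3.3 and numpy 2.4.6 under Python 3.11.15.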

Additional observations from a re-analysis of the deposited data

How the results depend on the processing

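Against 16 genes called in TG, median-of-ratios scaling gave 31, upper-quartile scaling 29, quantile normalization 33, limma-voom 28, the fit of the 6 TG libraries alone 3 (Nr1d1, Arrdc3 and Cys1), the haemoglobin covariate 4, and leaving out TG ZT12 replicate 1 together with WT ZT0 replicate 2 gave 71. Leaving out single libraries gave 6 (without TG ZT0 replicate 2) to 21 (without WT ZT0 replicate 2), with 10 without TG ZT0 replicate 1, 10 without TG ZT0 replicate 3 and 8 without TG ZT12 replicate 3. Against 12 genes in WT, the same settings gave 55, 47, 52 and 56 for the 3 scalings and limma-voom, 25 with the 10 highest genes removed, 5 with the haemoglobin covariate and 73 without the 2 libraries, and leaving out single libraries gave 4 to 35. The cause of these differences was not tested. The interaction had 0 calls in every setting run. With the replicate block in the 6 libraries of a genotype, 1 gene was called in TG (Nr1d1) and 5 in WT, and with the block over 12 libraries 18 in TG, which held 15 of the 16 calls and not Fbxo32 (limma adjusted p = 0.0591). Same-numbered TG libraries correlated at -0.348, -0.204 and 0.19 after removal of group means, so the numbers are not shown to pair the samples. Over the alternatives, the differences of the 16 called genes kept their direction in 430 of 430 values and their call in 337. Since the groups of these genes did not overlap, leaving out libraries could not reverse a direction, so the first count says little about stability. Depth limits Per2 and Cys1 most, with 23 and 19 reads in their lowest libraries.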

Other observations

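Some values lie outside the comparisons above and were chosen after they were seen. The 2 genes given first were lower in all 3 TG ZT12 libraries, as 3.87% of all genes were, without being called: Fmo1, a flavin monooxygenase, at 7.38, 10.1 and 8.81 TPM at ZT0, against 3.41, 5.2 and 4.83 TPM at ZT12 (limma adjusted p = 0.176), and Sult1a1, a sulfotransferase, at 7.42, 9.21 and 10.7 TPM and at 4.52, 5.25 and 6.25 TPM (adjusted p = 0.228).

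Noct, a clock-linked nocturnin gene, stood at 13.2, 9.97 and 11.5 TPM at ZT0, against 4.18, 7.27 and 3.72 TPM at ZT12, a difference of -1.09 (limma adjusted p = 0.106). Slc25a30, a mitochondrial carrier, stood at 8.52, 5.32 and 7.29 TPM and at 0.941, 3.49 and 3.66 TPM (-1.21, adjusted p = 0.339). Neither had overlapping groups. Junb, a partner of Fos, stood at 1.96, 2.36 and 2.52 TPM at ZT0, against 10.8, 9.88 and 5.13 TPM at ZT12 (limma adjusted p = 0.696), and its lowest ZT12 value came from the library with red cell markers at the ZT0 level. A link between Junb and these markers was not tested.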
